A study of Mus musculus with 15 samples.

Results

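The effect of a cardiac renalase (RNLS) virus was measured in the hearts of RNLS knockout mice with chronic kidney disease (CKD). The comparison sets 3 KOCKD + RNLS libraries against 3 KOCKD libraries, 6 of the 15 heart RNA-seq libraries of the series. Libraries were assigned to groups by the sample labels. Both groups were male rnls-/- mice of the C57BL/6J strain with subtotal nephrectomy, the knockout having been made with TALENs, and their hearts were taken 18 weeks after surgery. KOCKD mice had received an empty vector through the tail vein, and KOCKD + RNLS mice had received AAV9-cTnT-RNLS. This vector is an adeno-associated virus that carries the Rnls coding sequence under the cardiac troponin T promoter, a promoter active in cardiomyocytes. RNLS in other organs of these mice was not measured here. The wild-type groups serve only as context: sham-operated mice (WTSHAM), CKD mice with vector (WTCKD) and CKD mice with AAV9-cTnT-RNLS (WTCKD + RNLS), 3 each. Of the 17447 genes in the table, 12521 had 10 or more counts in 3 or more of the 6 libraries and were tested.

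RNLS is a flavoprotein made mainly in the kidney and released into the blood. It is known to oxidise stray isomers of reduced NAD and was first described as an enzyme that lowers circulating catecholamines. In CKD the heart thickens and its interstitium fills with collagen, and the question put to these libraries was which genes move when RNLS is supplied to cardiomyocytes of animals that have none.

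The 6 libraries held between 10570211 and 12281869 counts on genes, against 10480788 to 13424078 over all 15. Levels are given as CPM, counts per 1000000 of the library size scaled by TMM. Differences are log2 fold changes of KOCKD + RNLS over KOCKD with their standard error (SE) from edgeR's quasi-likelihood fit, and p-values are adjusted by Benjamini-Hochberg over all 12521 genes. The labels mark separate samples, and the p-values measure the spread between such samples. Rnls itself was not analysed here, so the genotype and the virus could not be checked on the targeted gene. Cardiomyocyte genes dominated both groups, with 18 markers summing to 133800 to 146300 CPM in KOCKD and 144000 to 146700 in KOCKD + RNLS, while lung markers stayed at or under 0.47 CPM and skeletal muscle markers at or under 4.84.

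Some libraries stood apart from the rest of their group or genotype. Among 11034 genes over 5 CPM in some library, 0 separated all 6 knockout libraries from all 9 wild-type libraries by 1.5 times. Wdfy1, an endosomal adaptor gene, was at 19.2, 18.4 and 18.1 CPM in KOCKD and at 7.39, 23.8 and 28.4 in KOCKD + RNLS, against 5.19 to 8.12 in the wild-type hearts. KOCKD + RNLS replicate 1 thus lay at the wild-type level of Wdfy1 while the other 5 knockout hearts lay above it. Fggy, a carbohydrate kinase gene, was at 1.65, 0.0933 and 0.161 CPM in KOCKD but at 6.42, 6.09 and 7.42 in KOCKD + RNLS, where the wild-type hearts ran from 3.8 to 6.25. Gm2423 showed the mirror image, with 4.69, 12.1 and 11.5 CPM in KOCKD and 0.6496, 0.905 and 0.657 in KOCKD + RNLS, against 0 to 1.29 in wild type. For Fggy and Gm2423 it was therefore the vector group that differed from every other heart. A part of genetic background in these genes was not tested, and the count of called genes without KOCKD + RNLS replicate 1 is given with the overall counts.

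The RNLS virus was associated with 2089 genes at an adjusted p under 0.05, which is 16.7% of those tested. Of these, 1229 were higher (9.82% of the tested genes) and 860 lower (6.87%) in KOCKD + RNLS. The groups did not overlap, with every library of one group beyond every library of the other, for 5200 genes (41.5%), 2662 higher (21.3%) and 2538 lower (20.3%). Without KOCKD + RNLS replicate 1, 1160 genes were called, and 886 without KOCKD replicate 2, the lowest count of the 6 fits that each left out 1 library. All 6 of those fits kept 685 of the calls, 461 higher and 224 lower, and the other 1404 were lost in at least 1 of them. The call rule of the study, which takes a small fold change and an unadjusted p, passed 2875 genes, or 23%.

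Gene length ran through the comparison. In the decile of genes with the shortest length (median 1044 bp), the median log2 fold change was -0.31, and 1 gene was called higher and 344 lower. In the decile with the longest length (median 11941 bp), the median was 0.33, with 463 genes called higher and 8 lower. The median rose with each decile in between, and over all tested genes the Spearman correlation of fold change and length was 0.541, a description across genes that share libraries. The trend could be seen in single libraries. The median deviation of the longest decile minus that of the shortest, in log2 CPM, was -0.268, -0.469 and -0.34 in KOCKD and 0.293, 0.32 and 0.255 in KOCKD + RNLS. The means were -0.359 ± 0.102 and 0.289 ± 0.033 (SD, n = 3 each), the groups did not overlap, and the exact permutation test gave p = 0.1, the smallest that 3 against 3 allows. The other 9 libraries ranged from -0.418 to 0.286, so single wild-type hearts lay near both ends.

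To set each result beside this trend, a second fit removed from every library a smooth trend of counts on length, referred to as the length offset. It left a Spearman correlation of 0.005 and called 763 genes (6.09%), 425 higher (3.39%) and 338 lower (2.7%), or 299 when KOCKD + RNLS replicate 1 was left out. Both fits called 592 genes in the same direction (4.73%), 370 higher (2.96%) and 222 lower (1.77%), and 0 in opposite directions. These were 28.3% of the calls without the offset and 77.6% of those with it. The part of library preparation, sequencing platform or RNA quality in the trend was not tested, and a length-dependent effect of the virus cannot be told apart from it. A call could be lost with the offset while the fold change hardly moved, and 28 of the 1497 genes called without the offset only had a fold change of larger size with it. Statements on leaving out 1 library refer to the fits without the offset unless the offset is named. Summed levels of lists are in CPM without the offset, so the length trend is still in them. Where such sums do not overlap, 41.5% of single genes did not overlap either. Counts over gene lists are to be read against the shares of all tested genes, 9.82% higher and 6.87% lower without the offset and 3.39% and 2.7% with it. Genes that kept their call with the offset are named as such throughout, and the plot of fold change by length shows what the offset removes.

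**Figure D1:**
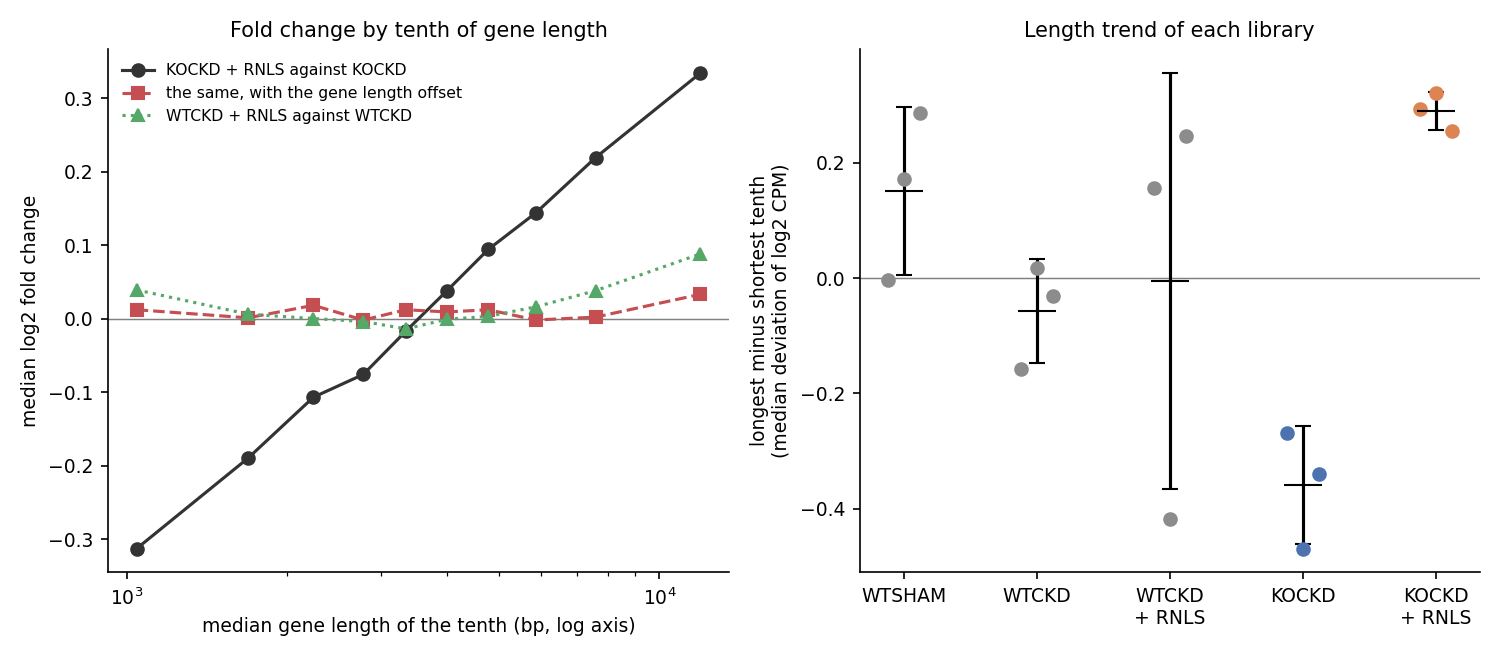
The left panel plots the median log2 fold change of each decile of genes against the median gene length of that decile in bp on a log axis, for KOCKD + RNLS against KOCKD with and without the length offset and for the wild-type comparison. The right panel plots, for each library, the median deviation of log2 CPM in the longest decile minus that in the shortest (points; bars show mean ± SD, n = 3). The knockout comparison climbs from -0.313 to 0.334, and the 3 KOCKD libraries (-0.469 to -0.268) lie below 0 while the 3 KOCKD + RNLS libraries (0.255 to 0.32) lie above it.

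Clock genes were among the largest falls and the largest rises. The circadian clock is a loop in which BMAL1 (gene Arntl) and CLOCK switch on genes of the Per and Cry families through E-box sequences, and the PER and CRY proteins then repress their own activators. The same activators drive Dbp, Tef and Hlf, whose proteins act through D-box sequences on further output genes. The hour at which the hearts were taken was not given in the sources used here. Both elements could be found in the RefSeq promoter windows of some of these genes, which run from 250 bases before the transcription start to 50 after it (build GRCm38.p6).

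Of 22 clock genes, 18 had such a window. The E-box, searched as CACGTG, lay in the 250 bases before the start in 5 of the 18, against 6.86% of the 27025 genes with a window. The D-box, searched as TTANGTAA on both strands, lay there in 1 of the 18, against 2.44%. Neither motif overlapped the other in the stretches shown here. The stretches are given for Per1, Ciart, Tef and Per3 because these genes rose, and capitals mark the motif. Cry1, which was not called, and Bhlhe41 also had an E-box there. The windows of Hlf, Cry2 and Nr1d2, which rose, held neither motif before the start. A match is a description of the letters and not a measured binding site.

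Per1, chr11:69098743-69098828, + strand, 206 to 121 bases before the start, with the E-box:
Per1 promoter stretch: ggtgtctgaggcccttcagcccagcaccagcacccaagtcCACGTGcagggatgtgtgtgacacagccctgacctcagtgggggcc
Ciart, chr3:95882229-95882384, - strand, the last 156 bases before the start, with 3 E-boxes:
Ciart promoter stretch: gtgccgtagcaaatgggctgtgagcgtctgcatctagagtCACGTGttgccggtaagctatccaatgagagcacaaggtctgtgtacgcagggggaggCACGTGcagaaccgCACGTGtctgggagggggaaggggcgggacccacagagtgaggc
Tef, chr15:81802506-81802591, + strand, 167 to 82 bases before its upstream start, with the E-box:
Tef upstream promoter stretch: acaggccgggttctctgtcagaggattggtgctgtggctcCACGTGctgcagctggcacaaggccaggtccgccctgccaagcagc
Tef, chr15:81811236-81811321, + strand, 178 to 93 bases before its downstream start, with the E-box:
Tef downstream promoter stretch: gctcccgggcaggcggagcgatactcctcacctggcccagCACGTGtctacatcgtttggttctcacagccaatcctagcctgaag
Per3, chr4:151044776-151044910, - strand, 245 to 111 bases before the start, with 2 D-boxes:
Per3 promoter stretch: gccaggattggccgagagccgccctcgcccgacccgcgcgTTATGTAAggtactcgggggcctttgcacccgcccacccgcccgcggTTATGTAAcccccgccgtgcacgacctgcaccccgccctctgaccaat

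The activator Arntl fell from 23.2, 24.5 and 10 CPM in the 3 KOCKD hearts to 1.62, 1.48 and 1.41 in the 3 KOCKD + RNLS hearts. Its log2 fold change was -3.66 ± 0.49 (SE, adjusted p = 0.000804), and -4.02 with the length offset (adjusted p = 0.000762). The groups did not overlap, and the fold change stayed between -3.97 and -3.45 when single libraries were left out. The deposited length of Arntl, 19267 bp, is among the long ones, so that the offset moved its fold change downwards. Clock, the partner of Arntl, was at 48.5, 46.6 and 47.8 CPM against 40.3, 37.1 and 34.1, and its fold change of -0.36 ± 0.15 passed the test with the offset (-0.63, adjusted p = 0.012) but not without it (adjusted p = 0.108). Npas2, a relative of Clock, had a fold change of -0.91 ± 0.41 (adjusted p = 0.137).

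The repressors of the Per family moved the other way. Per2 was at 3.73, 8.02 and 13.3 CPM in KOCKD and at 39.7, 41.1 and 49.5 in KOCKD + RNLS, a log2 fold change of 2.37 ± 0.56 (adjusted p = 0.0112). Per3 was at 6.86, 12.4 and 24.5 CPM against 47.3, 54.9 and 58.6, a fold change of 1.87 ± 0.37 (adjusted p = 0.0041). Per1 was at 16.1, 32.4 and 50.2 CPM against 93.5, 95.5 and 91.2, a fold change of 1.502 ± 0.35 (adjusted p = 0.011). All 3 were higher in each KOCKD + RNLS heart than in any KOCKD heart, and all 3 were also called with the offset (adjusted p = 0.0329, 0.0154 and 0.0471). The KOCKD hearts spread more widely than the KOCKD + RNLS hearts, with replicate 3 the highest for each of the 3 genes. Ciart, whose protein represses BMAL1 activity, was at 3.04, 2.61 and 10 CPM against 15.1, 17.2 and 22.8; its call (adjusted p = 0.0444) was lost with the offset (adjusted p = 0.063), although the fold change went from 1.79 to 1.901, and in 5 of the 6 fits that left out 1 library. Cry2 rose by 0.73 ± 0.198 (adjusted p = 0.0208), whereas Cry1 had a fold change of 0.51 ± 0.22 that did not pass (adjusted p = 0.118).

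Of the output factors, Hlf and Tef rose with the Per genes and Dbp was not called. Hlf was at 15.5, 17.6 and 30.2 CPM against 55.5, 68.97 and 69.03, a fold change of 1.61 ± 0.24 (adjusted p = 0.00117, and 0.00449 with the offset). Tef was at 94.2, 112 and 152 CPM against 280, 287 and 296, a fold change of 1.27 ± 0.26 (adjusted p = 0.00494, and 0.0268 with the offset). Dbp was at 51.8, 23.7 and 142 CPM against 122, 192 and 195, and its fold change of 1.22 ± 0.53 did not pass (adjusted p = 0.124), with KOCKD replicate 3 inside the range of the other group. Wee1, a cell cycle kinase under clock control, was at 7.21, 11.2 and 10.7 CPM against 23.5, 25.4 and 24.7, a fold change of 1.34 ± 0.25 (adjusted p = 0.00315, and 0.00771 with the offset). Of the 15 genes tested on the repressor and output side of the loop, 10 rose and 1 fell, with a median of 1.22; with the offset 6 rose and 0 fell, with a median of 1.11. The 6 that rose in both fits were Per1, Per2, Per3, Tef, Hlf and Wee1. With the offset, Hlf and Wee1 kept their calls in each fit that left out 1 library. Per3 lost its call in 4 of 6 such fits, and Per1, Per2 and Tef each in 5 of 6. The gene that fell was Nr1d1, which encodes the repressor REV-ERB alpha, at 225, 114 and 255 CPM against 60.4, 93.1 and 119. Its fold change of -1.13 ± 0.36 (adjusted p = 0.0409) was not called with the offset (-1.06, adjusted p = 0.0968), and the groups overlapped. Its close relative Nr1d2 rose by 0.65 ± 0.18 (adjusted p = 0.021). Among the 7 genes on the activator side of the loop and its modifiers, 1 rose (Rora, 0.56 ± 0.11, adjusted p = 0.00418, not called with the offset) and 1 fell (Arntl), and with the offset 2 fell (Arntl and Clock).

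In the wild-type hearts, Arntl was at 30.6, 30.9 and 34.03 CPM in WTCKD and 1.33, 1.895 and 2.43 in WTCKD + RNLS, and Per2 at 6.69, 4.797 and 6.29 against 62.5, 35.1 and 52.1. In both genotypes every heart with the virus had less Arntl and more Per2 than every heart with the vector. WTSHAM replicate 1, which had no virus, was at 7.64 CPM for Arntl and 33.8 for Per2, apart from the other 2 sham hearts at 21.5 and 32.7 for Arntl and at 5.22 and 4.65 for Per2.

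**Figure D2:**
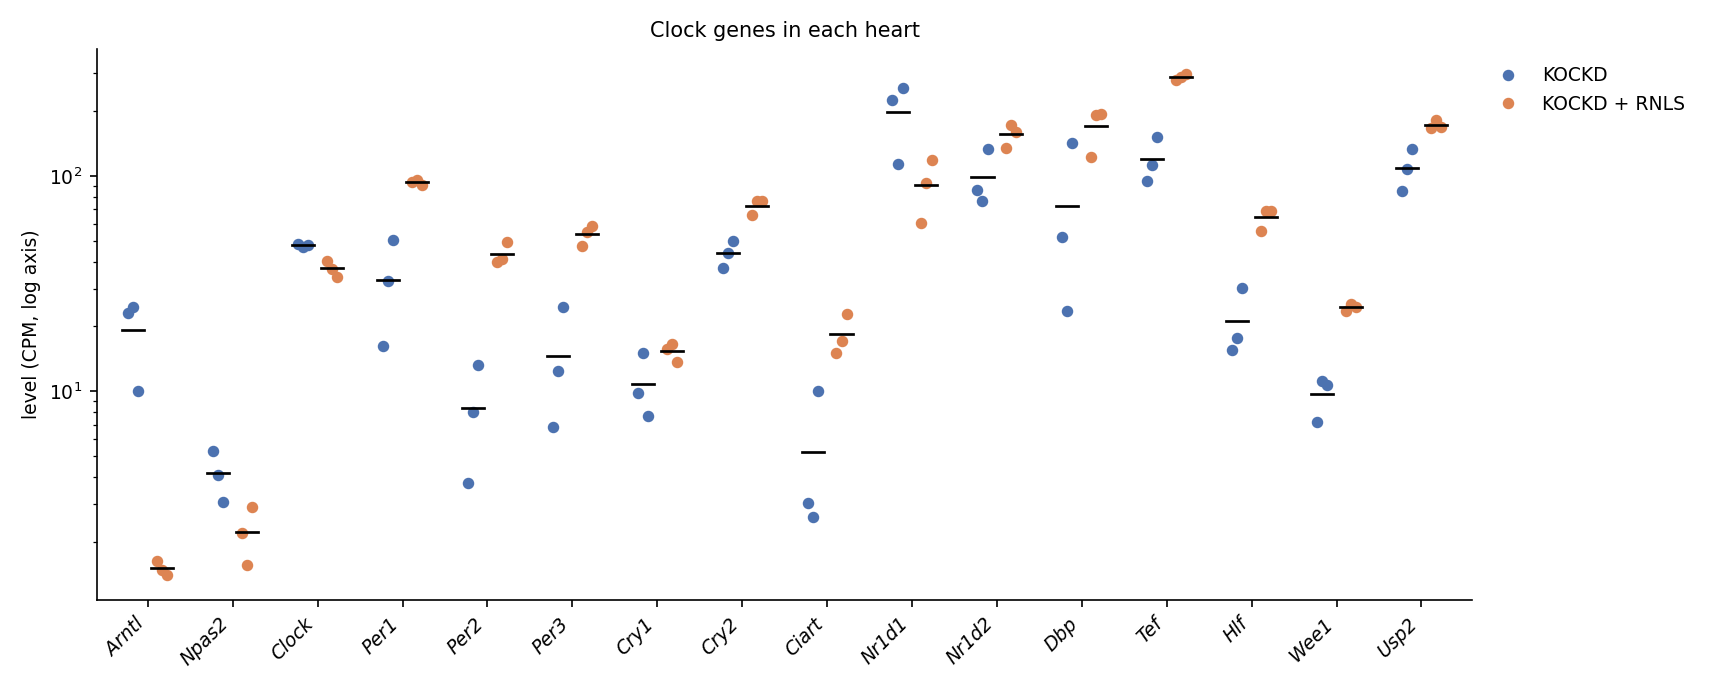
Levels of 16 clock genes in CPM on a log axis, with 1 point per heart and a line at the mean of 3 hearts, for KOCKD and KOCKD + RNLS. Arntl lies at 10 to 24.5 CPM in KOCKD and at 1.41 to 1.62 in KOCKD + RNLS, and Per1, Per2, Per3, Hlf and Wee1 lie higher in every KOCKD + RNLS heart.

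Several collagens of the interstitium fell in the hearts with the virus. Fibrillar collagens are the main load-bearing fibres that fibroblasts lay down in a scarring heart. Col3a1, the chain of type III collagen, was at 246, 168 and 170 CPM in KOCKD and 80.6, 59.4 and 56.2 in KOCKD + RNLS, a log2 fold change of -1.57 ± 0.24 (adjusted p = 0.00134). Col1a1, a chain of type I collagen, was at 153, 92.3 and 89.2 CPM against 59.5, 45.9 and 50.8, a fold change of -1.097 ± 0.26 (adjusted p = 0.0115). Col5a3, a minor chain of type V collagen that takes part in fibril formation, was at 23.97, 24.1 and 24.7 CPM against 7.55, 6.09 and 6.95, a fold change of -1.82 ± 0.31 (adjusted p = 0.00206). In none of the 3 did the groups overlap, and all 3 fell somewhat further with the offset (-1.701, -1.24 and -1.98), as the offset lowers the values of long genes. Col1a2, the partner chain of Col1a1, was at 132, 101 and 103 CPM against 106, 79.9 and 75.04, and its fold change of -0.36 ± 0.18 was not called (adjusted p = 0.184). Col1a1 missed the threshold when KOCKD replicate 1, its highest library, or KOCKD + RNLS replicate 2 was left out, and its fold change ran from -1.24 to -0.801 over the 6 such fits. With the offset, Col1a1 lost its call in 3 of 6 such fits, at adjusted p-values up to 0.0684. Of 8 fibrillar collagens tested, 3 fell and 1 rose (Col27a1, 0.997 ± 0.301, not called with the offset), with a median of -0.37, and with the offset 4 fell, Col5a1 joining them, and 0 rose, with a median of -0.58. The median over all tested genes was -0.003 without the offset and 0.009 with it. Whether an abundance counted in heart tissue falls through fewer cells of a type or less RNA per cell cannot be told apart, here and in what follows.

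The other interstitial collagens were mixed. Of 13 tested, 1 rose (Col28a1) and 2 fell (Col6a2 and Col6a3), with a median of 0.15, and with the offset the median was -0.003 and only the 2 type VI chains were called. Col6a3 was at 37.95, 40.1 and 37.5 CPM against 27.6, 23.5 and 25.7 (-0.59 ± 0.17, adjusted p = 0.0303), and Col6a2 at 122, 91.7 and 94.1 against 70.8, 61.6 and 70.6 (-0.6 ± 0.18, adjusted p = 0.0357). Type VI collagen forms the fine filaments around cells, and the remaining chain Col6a1 had a fold change of -0.48 ± 0.17 that just missed the threshold (adjusted p = 0.0544). Both type VI calls without the offset were lost in at least 5 of the 6 fits that left out 1 library.

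Type IV collagen, the sheet-forming collagen of basement membranes, fell in its 2 common chains. Col4a1 was at 590, 536 and 463 CPM against 323, 312 and 281, a fold change of -0.79 ± 0.15 (adjusted p = 0.00377). Col4a2 was at 519, 450 and 425 CPM against 304, 304 and 296, a fold change of -0.62 ± 0.15 (adjusted p = 0.0121). Both were called with the offset (-0.97 and -0.796) and in each fit that left out 1 library, with and without the offset. The 2 genes lie next to each other in opposite directions, and the strand setting of the counting was not given in the sources used here. Laminin genes Lama2 and Lamb2 rose without the offset only. Lama2 was at 118, 128 and 126 CPM against 192, 171 and 169 (0.52 ± 0.097, adjusted p = 0.00308) and Lamb2 rose by 0.402 ± 0.11 (adjusted p = 0.0208), yet with the offset neither was called (0.22 and 0.27). Over the 22 basement membrane genes, 4 rose and 4 fell with a median of 0.18, and with the offset 0 rose and 3 fell with a median of -0.02. The median of this list thus changed sign with the offset.

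Some proteins that sit between the fibres and the cells fell as well. Tnc, a tenascin made in injured myocardium, was at 1.74, 1.399 and 1.53 CPM against 0.244, 0.576 and 0.657 (-1.66 ± 0.39, adjusted p = 0.0105, and 0.011 with the offset). Eln, which encodes elastin, was at 50.9, 33.8 and 25.8 CPM against 19.2, 13.4 and 14.1 (-1.24 ± 0.302, adjusted p = 0.0131, and 0.0257 with the offset). Both were lower in every KOCKD + RNLS heart, although elastin was not called when KOCKD replicate 1 was left out, nor when KOCKD + RNLS replicate 2 was. Tnxb, another tenascin, rose from 93.6, 82.2 and 103 to 170, 165 and 141 CPM (0.77 ± 0.17, adjusted p = 0.00681), and by 0.45 with the offset (adjusted p = 0.0394). Mfap5, a microfibril component, fell by 0.79 ± 0.21 (adjusted p = 0.019) and was not called with the offset. Of the 35 matricellular and microfibril genes, 1 rose and 5 fell (with the offset 1 and 3), and the median was -0.196 in one fit and -0.203 in the other. Spon2, a secreted spondin, fell furthest of the matrix genes named here apart from Adamts4, from 4.95, 7.18 and 2.904 to 0.974, 0.329 and 0.376 CPM (-3.11 ± 0.64, adjusted p = 0.00507, and 0.0157 with the offset). Postn, the periostin of activated fibroblasts, was at 61.6, 38.7 and 45.5 CPM against 31.1, 23.4 and 26.5, and its call (adjusted p = 0.0422) was lost with the offset (adjusted p = 0.0827, with fold changes of -0.85 and -0.83) and in each fit that left out 1 library.

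Some of the enzymes that finish and link collagen fell with the collagens. Loxl1, which cross-links elastin and collagen, was at 53.7, 40.1 and 43.6 CPM against 26.8, 22.6 and 21.9 (-0.95 ± 0.17, adjusted p = 0.00238, and 0.00681 with the offset). Serpinh1, the collagen chaperone HSP47, was at 225, 299 and 229 CPM against 160, 158 and 162 (-0.65 ± 0.13, adjusted p = 0.00506, and 0.0175 with the offset). Neither call was lost when a library was left out without the offset, while with it Loxl1 kept its call in each such fit and Serpinh1 lost it in 4 of 6. Ppib, a prolyl isomerase with a short transcript of 960 bp, fell by 0.36 ± 0.09 (adjusted p = 0.0142) and was at -0.04 with the offset. Adamts3, which trims procollagen ends, rose by 0.87 ± 0.21 (adjusted p = 0.013, and 0.0667 with the offset). Of 25 such genes, 1 rose and 6 fell (with the offset 1 and 3), with medians of -0.16 and -0.05.

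Several proteases that degrade matrix fell, and an inhibitor rose. Mmp14, a membrane-bound metalloproteinase, was at 33.6, 28.3 and 25.3 CPM against 15.3, 14.7 and 11.5, a fold change of -1.07 ± 0.16 (adjusted p = 0.00129). Timp3, an inhibitor of metalloproteinases that stays bound to matrix, was at 225, 243 and 255 CPM against 451, 460 and 459, a fold change of 0.92 ± 0.14 (adjusted p = 0.00129). Both pairs of groups were far apart for their spread, and both genes were called with the offset (-1.08 and 0.85) and without any single library in either fit. Adamts4, an aggrecanase, was counted 45 times in the 3 KOCKD libraries and 1 time in the 3 KOCKD + RNLS libraries, a ratio of 0.0219 with an exact 95% interval of 0.000543 to 0.129 that covers counting error only. Adamts9, a broad relative, fell from 27.8, 28.2 and 24.1 to 16.97, 17.1 and 18.3 CPM (-0.61 ± 0.13, adjusted p = 0.00562, and 0.00337 with the offset). Of 34 proteases and inhibitors, 2 rose and 7 fell (with the offset 1 and 5), and the offset hardly moved the median, from -0.34 to -0.36.

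Receptors for matrix and the TGF-beta pathway, the main pathway known to switch on collagen genes, had no member that fell without the offset. Of 29 integrins and other matrix receptors, 2 rose (Ddr2, 0.65 ± 0.19, and Itga1, 0.36 ± 0.11, neither called with the offset) and 0 fell, with a median of 0.05 (-0.03 with the offset). The share that rose, 6.9%, was under the 9.82% of all tested genes. With the offset 1 fell, Cd47 (-0.46, adjusted p = 0.0359). Of 36 TGF-beta ligands, receptors and signalling genes, 7 rose and 0 fell, with a median of 0.17. Tgfbr3, the coreceptor betaglycan, was at 52.7, 53.2 and 46.4 CPM against 83.3, 80 and 69.3 (0.61 ± 0.12, adjusted p = 0.00469) and was the 1 rise kept with the offset (0.46, adjusted p = 0.0254). Bmpr2, a BMP receptor of 11804 bp, rose by 0.58 ± 0.09 (adjusted p = 0.00154), Ltbp1 by 0.48 ± 0.11 and the corepressor Skil by 0.74 ± 0.19, and these 3 calls were lost with the offset (0.28, 0.26 and 0.56). With the offset 1 gene of the pathway fell, the decoy receptor Bambi (-0.53, adjusted p = 0.04), and the list median was 0.06.

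Markers of the cells that make matrix were set beside these falls. The summed level of 20 fibroblast markers was 2731 to 3527 CPM in KOCKD and 2834 to 3236 in KOCKD + RNLS, ranges that overlap. Of the 20, 1 rose and 2 fell (with the offset 0 and 1), with medians of -0.159 and -0.008. The summed level of 14 markers of activated fibroblasts was 307 to 527 CPM against 288 to 374, also overlapping, and 3 of 12 tested fell, with a median of -0.74 (-0.86 with the offset). These 3 were Meox1, a transcription factor of activated fibroblasts at 21.4, 20.4 and 17.5 CPM against 8.77, 7.49 and 8.45 (-1.26 ± 0.23, adjusted p = 0.00269, and 0.0137 with the offset), together with Tnc and Postn, which also stand in the matricellular list. The part of cell numbers in the collagen result was not tested. In WTCKD and WTCKD + RNLS hearts, Col3a1 was at 239, 303 and 240 CPM against 66.8, 79.3 and 91.6 and Col1a1 at 121, 166 and 124 against 58.5, 67.8 and 87.1, so the virus groups were the lower ones in both genotypes. Against WTSHAM, at 186, 396 and 373 CPM of Col3a1, each KOCKD + RNLS heart was lower. The vector group did not lie above sham either. The 11 fibrillar collagens summed to 456.5 to 645.6 CPM in KOCKD and 576.6 to 1133 in WTSHAM.

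**Figure D3:**
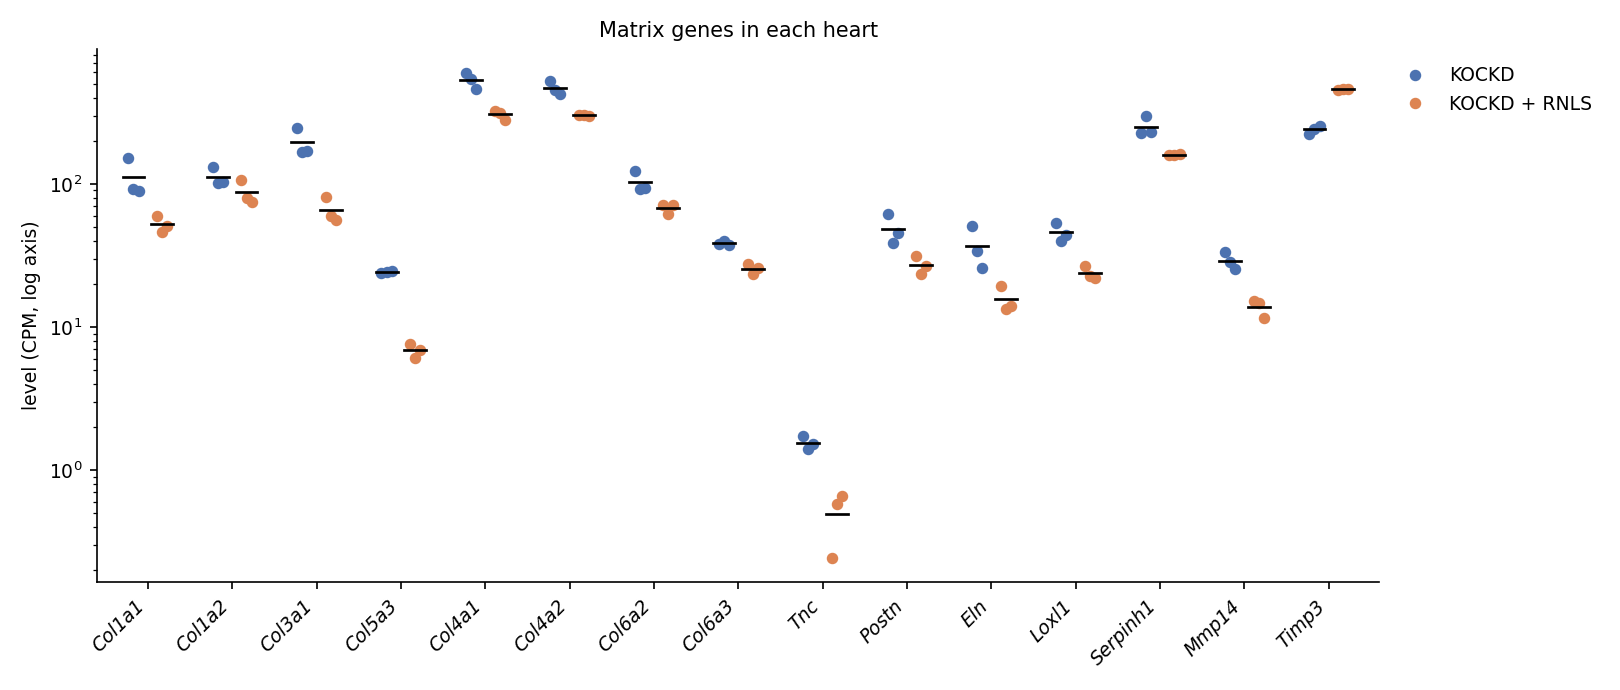
Levels of 15 matrix genes in CPM on a log axis, with 1 point per heart and a line at the mean of 3 hearts, for KOCKD and KOCKD + RNLS. Col3a1 lies at 168 to 246 CPM in KOCKD and at 56.2 to 80.6 in KOCKD + RNLS, the groups of Col1a2 overlap, and Timp3 alone lies higher in KOCKD + RNLS (451 to 460 against 225 to 255 CPM).

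Several genes that steer the heart between fat and glucose fell with the virus, while most genes of fat oxidation were not called. PPAR-alpha is the nuclear receptor that fatty acids activate in cardiomyocytes, and Pdk4, Angptl4, Ucp3 and Plin5 are among its classical targets. Pdk4, the kinase that shuts glucose carbon out of the mitochondrion, was at 512, 174 and 465 CPM in KOCKD and 119, 105 and 78.3 in KOCKD + RNLS, a log2 fold change of -1.93 ± 0.38 (adjusted p = 0.0043, and 0.0115 with the offset). Angptl4, an inhibitor of lipoprotein lipase, was at 17.02, 4.29 and 14.4 CPM against 1.54, 0.905 and 1.22, a fold change of -3.28 ± 0.703 (adjusted p = 0.00652, and 0.022 with the offset). KOCKD replicate 2 was the lowest vector heart for both genes, yet the groups did not overlap and neither call without the offset was lost when 1 library was left out. With the offset, removing single libraries in turn cost Pdk4 its call 2 times of 6 and Angptl4 4 times, at adjusted p-values up to 0.0548 for Pdk4 and 0.0918 for Angptl4. Plin5, which coats lipid droplets, was at 114, 115 and 108 CPM against 73.7, 63.04 and 65.7 (-0.74 ± 0.15, adjusted p = 0.00466, and 0.0232 with the offset). Acot2, a mitochondrial thioesterase with a near-identical neighbour in Acot1, was at 65.9, 70.04 and 68.6 CPM against 40.2, 42.5 and 47.05 (-0.66 ± 0.16, adjusted p = 0.011, and 0.0375 with the offset). Leaving out single libraries with the offset cost Acot2 its call 6 times of 6 and Plin5 4 times. Ucp3, a mitochondrial carrier, was at 81.5, 25.7 and 99.4 CPM against 27.4, 25.4 and 25.2, where KOCKD replicate 2 lay within the other group and the call (adjusted p = 0.0469) was lost with the offset (adjusted p = 0.111, with fold changes of -1.41 and -1.31). Of 34 genes of the fuel switch, 2 rose and 8 fell (with the offset 1 and 5), while the median was close to that of all genes at -0.09 and -0.04. The falls were thus in some members and not across the list. Adipocyte markers moved beside these genes. Their summed level, which has no offset, was 75.7 to 145 CPM in KOCKD and 51 to 71.6 in KOCKD + RNLS, without overlap. Of 6 tested, 1 fell (Lipe, -0.64 ± 0.14, adjusted p = 0.0067), and with the offset also 1. The list median was -1.81 without the offset and -1.56 with it. The defining fat gene Adipoq was at 3.39, 0 and 1.85 CPM against 1.22, 0 and 0. Within KOCKD, Adipoq and Angptl4 were both highest in replicate 1 and lowest in replicate 2. The part of fat tissue in the falls of this list was not tested.

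In fatty acid oxidation itself, 1 of 37 genes rose and 4 fell, with a median of -0.07 (0.03 with the offset). Cd36, the fatty acid transporter of the cell surface, was at 1999, 2221 and 1958 CPM against 1487, 1485 and 1496 (-0.47 ± 0.09, adjusted p = 0.00278, and 0.00524 with the offset). Mlycd, which removes the malonyl-CoA that blocks fat entry into mitochondria, was at 149, 160 and 143 CPM against 92.6, 97.03 and 98.9 (-0.65 ± 0.12, adjusted p = 0.00315, and 0.00937 with the offset). Acacb, which makes that malonyl-CoA, rose by 0.44 ± 0.098 (adjusted p = 0.00746), but this long gene of 9467 bp was at 0.18 with the offset. Fabp3, the fatty acid carrier of heart cytosol and a short gene of 680 bp, fell by 0.52 ± 0.13 (adjusted p = 0.0141) and was at -0.12 with the offset. Cd36 and Mlycd thus fell in both fits, whereas Acacb and Fabp3 were called without the offset only.

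Of 37 genes of glucose uptake and glycolysis, 2 rose and 6 fell (with the offset 0 and 3), with medians of -0.08 and 0.01. Txnip, which restrains glucose uptake and binds thioredoxin, was at 1196, 1005 and 1265 CPM against 454, 623 and 477 (-1.16 ± 0.22, adjusted p = 0.00338, and 0.0127 with the offset), with no overlap. Eno3, the muscle enolase, was at 1331, 1655 and 1520 CPM against 1196, 974 and 927 (-0.54 ± 0.12, adjusted p = 0.0084, and 0.0103 with the offset). Hk2 and Pfkfb2, which feed glycolysis, rose by 0.34 ± 0.08 (adjusted p = 0.0113) and 0.51 ± 0.12 (adjusted p = 0.0124), and neither call held with the offset. In the wild-type hearts, Pdk4 was at 754, 518 and 1346 CPM in WTCKD and 102, 78.8 and 75.9 in WTCKD + RNLS, and Txnip at 862, 1101 and 1390 against 553, 416 and 426.

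Genes of hypertrophy, the thickening of the heart under load, moved in both directions. Ankrd23, a stretch-responsive ankyrin repeat gene of muscle, was at 789, 794 and 678 CPM in KOCKD and 348, 349 and 309 in KOCKD + RNLS, a log2 fold change of -1.17 ± 0.12 (adjusted p = 0.000353, and 0.000762 with the offset). Rcan1, a target and brake of calcineurin, was at 140, 146 and 100 CPM against 71.05, 68.7 and 75.5 (-0.84 ± 0.13, adjusted p = 0.00132, and 0.00449 with the offset). Myh6, the fast myosin heavy chain of the adult mouse heart, was at 32070, 31700 and 30170 CPM against 46310, 45910 and 42960 (0.53 ± 0.08, adjusted p = 0.00154), and rose by 0.36 with the offset (adjusted p = 0.00738). The groups did not overlap for these 3 genes, and none lost its call when 1 library was left out, with or without the offset.

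The fetal genes Nppa, Nppb and Myh7, classical readouts of cardiac stress, were not called. Nppb, which encodes the natriuretic peptide BNP, was at 192, 264 and 216 CPM against 115, 155 and 128, and although the groups did not overlap, its fold change of -0.76 ± 0.26 missed the threshold (adjusted p = 0.059) and was -0.38 with the offset (adjusted p = 0.352). Nppa, the atrial natriuretic peptide, ranged from 103 to 938 CPM in KOCKD and from 126 to 282 in KOCKD + RNLS (-1.28 ± 0.78, adjusted p = 0.273). Myh7, the slow myosin heavy chain, was at 317, 135 and 897 CPM against 1106, 2061 and 951, higher in each virus heart but widely spread (1.61 ± 0.67, adjusted p = 0.111). Myh6 and Myh7 share long near-identical stretches, and how reads common to both were counted was not given in the sources used here. Of 32 hypertrophy genes, 5 rose and 4 fell, and with the offset 1 rose and 2 fell, with medians of 0.12 and -0.002. Tead1, a Hippo pathway factor, rose by 0.46 ± 0.09 (adjusted p = 0.00414) without the offset only (0.19).

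Atrial genes differed widely between libraries of one group. Myl7 and Myl4, the atrial light chains, were at 52.7, 4.85 and 806 and 64.1, 8.39 and 774 CPM in KOCKD and at 0.325, 0.658 and 0.751 and 1.299, 2.14 and 1.597 in KOCKD + RNLS. The WTCKD hearts were scattered in the same way, from 1.28 to 480 CPM of Myl7. Their fold changes of -8.96 ± 2.59 (adjusted p = 0.0274) and -7.39 ± 2.14 (adjusted p = 0.0279) lost their calls without KOCKD replicate 3, when they were -5.64 and -4.43, and without any one of the KOCKD + RNLS libraries. The summed level of 16 atrial markers was 322 to 3059 CPM in KOCKD and 353 to 498 in KOCKD + RNLS, and 2 of 12 tested fell. Nppa was highest in the KOCKD heart with the most Myl7 and Myl4, whereas Myh7 was higher in the KOCKD + RNLS hearts, where Myl7 and Myl4 were lowest. The part of atrial tissue in Nppa was not tested.

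In the sarcomere and Z-disc list, 6 of 42 genes rose and 3 fell. Neb, which encodes nebulin and is low in the heart, was at 4.25, 3.08 and 3.63 CPM against 16.6, 11.8 and 14.5 (1.97 ± 0.33, adjusted p = 0.00209), and rose by 1.604 with the offset (adjusted p = 0.00849). Mylk4, a myosin light chain kinase of heart, was at 155, 199 and 251 CPM against 375, 457 and 411 (1.04 ± 0.19, adjusted p = 0.00259, and 0.019 with the offset). Cmya5, the giant protein myospryn, was at 1121, 947 and 1003 CPM against 1549, 1665 and 1477 (0.61 ± 0.101, adjusted p = 0.00195, and 0.042 with the offset). None of the 3 overlapped between the groups, and none lost its call when 1 library was left out without the offset. With the offset, Neb kept its call in each such fit, Mylk4 lost it in 4 of 6 and Cmya5 in 5 of 6. Nebl, the nebulette of the cardiac Z-disc, rose by 0.497 ± 0.09 (adjusted p = 0.00265) but was at 0.16 with the offset (adjusted p = 0.12). Ttn, the longest gene of the table at 117466 bp, rose by 0.59 ± 0.11 (adjusted p = 0.00401) and was at 0.28 with the offset (adjusted p = 0.0868). With the offset 4 rose and 1 fell, and the list had medians of 0.03 and 0.04. Csrp3, a Z-disc protein with a short transcript of 973 bp, fell by 0.395 ± 0.08 (adjusted p = 0.00592) and was at -0.08 with the offset.

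Genes of calcium handling and of membrane channels are mostly long (median lengths 5381 and 5541 bp), and the rises among them were mostly not called with the offset. Of 38 calcium genes, 12 rose and 2 fell, and with the offset 2 rose and 2 fell, with medians of 0.09 and 0.01. Cacna1c, the pore of the L-type calcium channel at 15750 bp, was at 322, 303 and 324 CPM against 478, 498 and 482 (0.62 ± 0.11, adjusted p = 0.00231, but 0.0614 with the offset). Cacna2d1, its auxiliary subunit, rose by 0.45 ± 0.07 (adjusted p = 0.00154) and was at 0.09 with the offset (adjusted p = 0.572). Ppp1r3a, a glycogen-targeting phosphatase subunit, and Itpr2, an inositol trisphosphate receptor, rose by 0.63 ± 0.12 and 0.72 ± 0.16, and the offset took both calls (adjusted p = 0.0543 and 0.126). Among 34 potassium, sodium and pacemaker channels, 3 rose and 1 fell (with the offset 1 and 1), with medians of 0.104 and -0.01. Abcc9, the regulatory subunit of the ATP-sensitive potassium channel, was at 427, 433 and 436 CPM against 623, 679 and 693 (0.62 ± 0.096, adjusted p = 0.00143), and rose by 0.39 with the offset (adjusted p = 0.00633). Kcnk3, a background potassium channel, was at 372, 372 and 347 CPM against 276, 291 and 317 (-0.303 ± 0.08, adjusted p = 0.0153, and 0.0177 with the offset).

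RNLS has been linked to catecholamines and to NAD, and both groups of genes were looked up. Of 29 catecholamine receptors, effectors and enzymes, 5 rose and 1 fell, with a median of 0.06, and with the offset 0 rose and 3 fell, with a median of 0.04. Adra1b, the alpha-1B receptor, was at 44.6, 41.5 and 49.8 CPM against 29.2, 22.8 and 27.8 (-0.77 ± 0.17, adjusted p = 0.00706, and 0.014 with the offset), without overlap. It was called in each fit that left out 1 library without the offset, and with the offset in all but the fit without KOCKD + RNLS replicate 2 (adjusted p = 0.0712). Akap6, Pde4d and Adcy9, which organise, degrade and make cyclic AMP, rose by 0.53 ± 0.11, 0.398 ± 0.08 and 0.41 ± 0.097. These 3 are long genes (17257, 53295 and 9547 bp) and were at 0.18, 0.04 and 0.14 with the offset, none of them called. Of 29 genes of NAD metabolism, 2 rose and 1 fell (with the offset 0 and 1), with medians of 0.096 and 0.12. Nmrk2, a nicotinamide riboside kinase that rises in stressed muscle, was at 7.29, 8.39 and 6.37 CPM against 2.52, 2.55 and 1.97 (-1.64 ± 0.41, adjusted p = 0.0148, and 0.0351 with the offset), although it missed the threshold when KOCKD replicate 2 was left out, and when KOCKD + RNLS replicate 3 was. Nampt, the enzyme that recycles nicotinamide, rose by 0.37 ± 0.102 (adjusted p = 0.0227) without the offset only. Nnt, a mitochondrial transhydrogenase, was at 862, 765 and 744 CPM against 1091, 968 and 821 and was not called (0.28 ± 0.103, adjusted p = 0.0729).

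Antioxidant genes are mostly short (median length 1576 bp against 3641 bp over all tested genes), and more of them fell than rose without the offset. Of 45, 2 rose and 8 fell, with a median of -0.16, and with the offset 3 rose and 2 fell, with a median of 0.05. Gsta3, a glutathione S-transferase, was at 6.95, 9.699 and 6.61 CPM against 20.1, 18.6 and 19.1 (1.32 ± 0.198, adjusted p = 0.0013), and rose by 1.52 with the offset (adjusted p = 0.000762). Gpx8 and Prdx1, which remove peroxides, fell, with fold changes of -0.68 ± 0.13 and -0.54 ± 0.12 (adjusted p = 0.00299 and 0.00812), and of -0.38 and -0.31 with the offset (adjusted p = 0.0289 and 0.0319). Sod3, the extracellular superoxide dismutase, fell by 0.502 ± 0.13 (adjusted p = 0.0169) without the offset only (adjusted p = 0.0803).

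Lists of antigen presentation, macrophages and chemokines held a few genes called lower, and with the offset 0 or 1 gene each. Of 16 genes of MHC class II presentation, 4 fell and 0 rose, with a median of -0.57 (-0.44 with the offset, where 1 fell). These 4 were 25% of the list, and 6.25% fell with the offset, against 6.87% and 2.7% of all tested genes. H2-Aa, a class II chain, was at 48.5, 81.3 and 68.6 CPM against 31.6, 17.6 and 46.3 (-1.06 ± 0.32, adjusted p = 0.0312, and -0.77 with the offset, adjusted p = 0.176), and H2-Eb1 at 41.2, 73.6 and 61.8 against 28.4, 13.2 and 41.98, where the groups overlapped. Ctsl, a lysosomal protease, was at 238, 240 and 211 CPM against 169, 170 and 176 (-0.42 ± 0.11, adjusted p = 0.0166) and was the 1 member also called with the offset (adjusted p = 0.0313), and Ctss fell by 0.68 ± 0.21 without the offset only. Of 25 genes of class I presentation, 4 fell (16%) and 0 rose, with a median of -0.22, and with the offset 0 were called, with a median of -0.15. The 4 that fell were Calr (-0.39 ± 0.08), Pdia3 (-0.34 ± 0.101), B2m (-0.62 ± 0.21) and H2-D1 (-0.51 ± 0.17), the last of which has near-identical relatives, and H2-D1 lost its call in each fit that left out 1 library.

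The summed level of 24 macrophage markers was 504 to 602 CPM in KOCKD and 391 to 500 in KOCKD + RNLS. These ranges do not overlap but lie close, with 504.2 CPM in the lowest KOCKD heart and 500.3 in the highest KOCKD + RNLS heart. Of the 24, 3 fell, or 12.5%, and with the offset 1, or 4.17%. The list median was -0.295 without the offset and -0.18 with it. Lyz2, a lysozyme of macrophages, was at 193, 201 and 170 CPM against 123, 97.9 and 109 (-0.77 ± 0.16, adjusted p = 0.00592), but not called with the offset (-0.48, adjusted p = 0.148). Cd83 fell by 0.93 ± 0.23 (adjusted p = 0.0123, and 0.0498 with the offset), and C1qa, a complement chain made by macrophages, had a fold change of -0.47 ± 0.14 that was called without the offset only. These are the values that stand beside the MHC class II result, and the part of macrophage number in it was not tested. Of 25 chemokine genes tested, 4 fell and 0 rose, with a median of -0.41 (-0.17 with the offset). These 4 were 16% of the list, and the 1 called lower with the offset was 4%. Cx3cl1, the membrane-bound chemokine of endothelium, was at 23.6, 21.1 and 21.5 CPM against 13.5, 11.4 and 12.2 (-0.83 ± 0.13, adjusted p = 0.00145) and was the 1 chemokine called with the offset (adjusted p = 0.00449). Ccl8, Ccl6 and Ccl9, which attract monocytes, fell, with fold changes of -2.202 ± 0.69, -1.098 ± 0.302 and -0.91 ± 0.28 (adjusted p = 0.0386, 0.0221 and 0.0327), and each call was lost with the offset, where the fold changes were -1.76, -0.87 and -0.86. Of 25 complement genes, 2 fell (C1qa and Cfp) and 0 rose, with a median of -0.27 (-0.12 with the offset, where 1 fell, Cd93), and the share that fell, 8%, was near the 6.87% of all tested genes.

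Interferon-response genes held few calls. Of 49, 3 rose, or 6.12% against 9.82% of all tested genes, and 0 fell, with medians of 0.13 and 0.11. Xaf1 was at 18.8, 10.7 and 10 CPM against 21.8, 31.7 and 29.02 (1.06 ± 0.27, adjusted p = 0.0166, and 0.0303 with the offset), and Oasl1 at 2.78, 1.58 and 2.02 against 6.82, 5.27 and 3.19 (1.26 ± 0.39, adjusted p = 0.0383, and 0.0499 with the offset). Ifit2 rose by 0.81 ± 0.25 (adjusted p = 0.036) without the offset only (0.75 with it). None of the 3 was called in the fits that left out the second or the third KOCKD heart, or the second KOCKD + RNLS heart.

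Many genes of large complexes made of small proteins fell without the offset and for the most part not with it. Of 81 cytosolic ribosomal protein genes (median length 821 bp), 63 fell and 0 rose, with a median of -0.44, while with the offset 5 fell and the median was -0.08. Of 84 nuclear genes of the respiratory chain (median length 762 bp), 46 fell and 0 rose, with a median of -0.35, while with the offset 1 rose, 2 fell and the median was 0.01. Of 78 mitochondrial ribosomal genes (median length 1412 bp), 22 fell and 0 rose, with a median of -0.31, against 7 and -0.06 with the offset. Of 47 proteasome genes (median length 1375 bp), 12 fell and 1 rose, with a median of -0.27, against 0 calls and -0.02 with the offset. In these 4 groups most of the falls were thus not called once the length trend was removed.

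Single members show the same. Atp5e, a subunit of ATP synthase with 414 bp, was at 266, 302 and 332 CPM against 181, 197 and 188 (-0.67 ± 0.12, adjusted p = 0.00221), and at -0.16 with the offset (adjusted p = 0.16). Ndufa1, a complex I subunit with 494 bp, fell by 0.51 ± 0.103 (adjusted p = 0.00503) and was at -0.03 with the offset, and Psmb4, a proteasome subunit, fell by 0.46 ± 0.1 and was at -0.14. Rpl10 went from -0.501 ± 0.09 (adjusted p = 0.00254) to -0.14 (adjusted p = 0.272). Rps15a, at 165, 201 and 210 CPM against 126, 125 and 120, was one of the 5 ribosomal genes called with the offset (-0.74, adjusted p = 0.00554). Its deposited length of 5136 bp is far above the median of the group, and the 5 genes called with the offset had a median length of 2343 bp against 792 bp for the 76 that were not. The same held for the mitochondrial ribosome, with 6712 bp for the 7 genes called with the offset (Mrpl55 and Mrps14 among them) against 1216 bp for the other 71. The offset rests on the deposited lengths, which could not be checked against the transcripts counted, and ribosomal genes also have many processed copies in the genome.

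**Figure D4:**
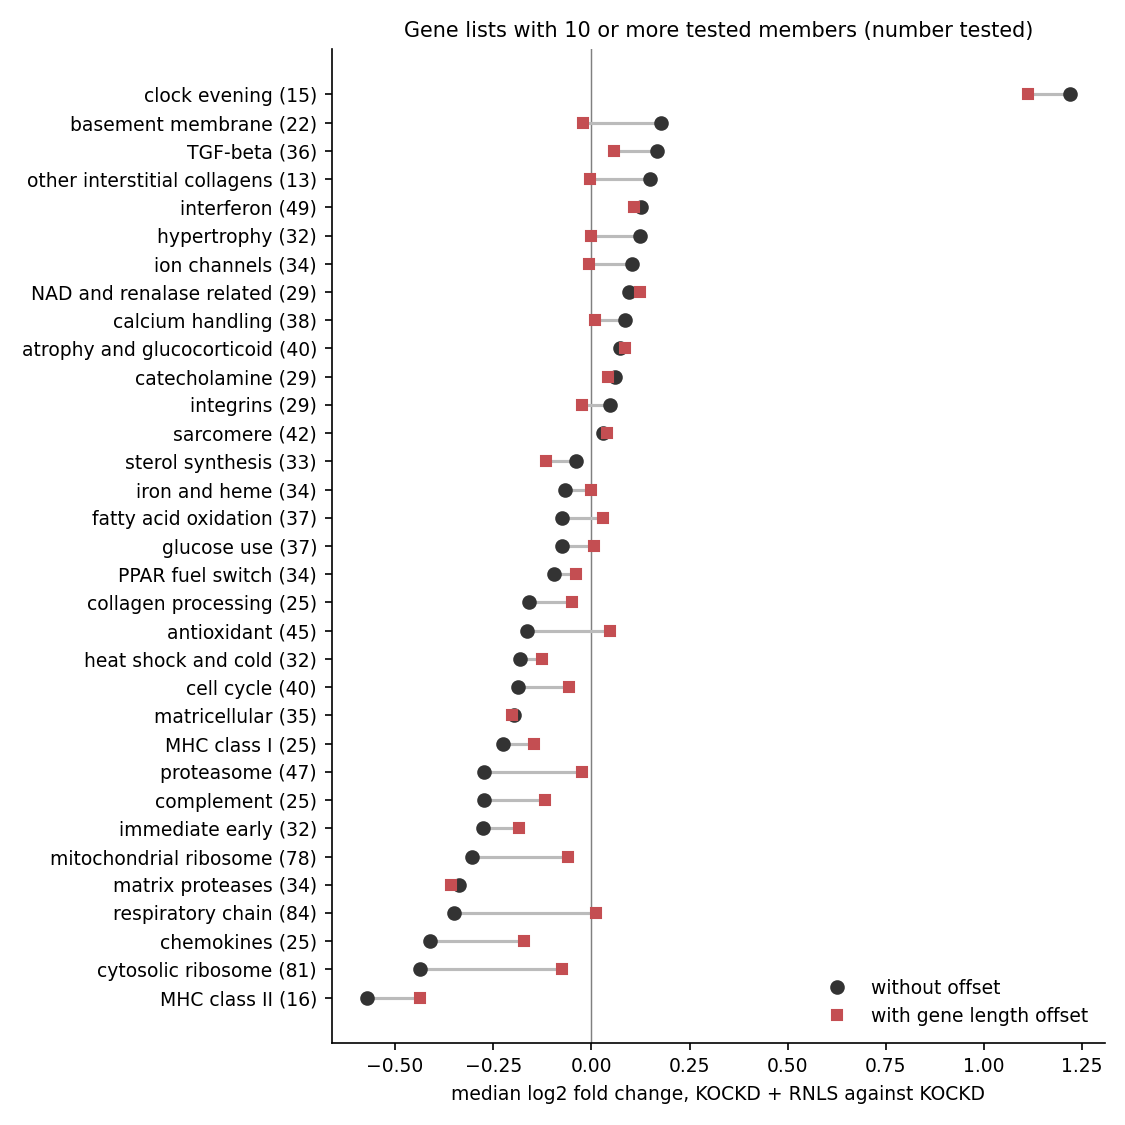
Median log2 fold change, KOCKD + RNLS against KOCKD, of each gene list with 10 or more tested members (number in parentheses), without the length offset (circles) and with it (squares). The evening clock genes stay at 1.22 and 1.11, whereas the cytosolic ribosome moves from -0.44 to -0.08 and the respiratory chain from -0.35 to 0.01.

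Genes of muscle wasting, autophagy and the glucocorticoid response moved both ways. Of 40, 7 rose and 5 fell, and with the offset 3 rose and 3 fell, with medians of 0.07 and 0.09. Cdkn1a, the cell cycle inhibitor p21, was at 32.04, 60.7 and 22.6 CPM against 17.6, 11.5 and 10.3 (-1.54 ± 0.28, adjusted p = 0.00299, and 0.0124 with the offset). Ulk1, the kinase that starts autophagy, was at 118, 114 and 120 CPM against 163, 171 and 183 (0.55 ± 0.08, adjusted p = 0.0013, and 0.0115 with the offset). Foxo3, a transcription factor of the atrophy programme, was at 114, 117 and 113 CPM against 182, 194 and 167 (0.66 ± 0.13, adjusted p = 0.00405, and 0.0387 with the offset). None of these 3 overlapped between the groups or lost its call without 1 library when the offset was not used. With the offset, removing single libraries cost Cdkn1a its call 3 times of 6, Ulk1 1 time and Foxo3 each time. Nr3c1, the glucocorticoid receptor, rose by 0.44 ± 0.07 (adjusted p = 0.00159) without the offset only (0.19, adjusted p = 0.084).

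Endothelial genes were mixed. The summed level of 30 endothelial markers was 3895 to 4444 CPM in KOCKD and 3795 to 3885 in KOCKD + RNLS, close ranges that do not overlap. Of the 30, 3 rose and 5 fell (with the offset 0 and 2), with medians of -0.08 and -0.05. Cldn5, a tight junction protein, was at 37.7, 24.7 and 25.5 CPM against 9.74, 6.995 and 8.36 (-1.81 ± 0.31, adjusted p = 0.0022, and 0.0124 with the offset), without overlap. Flt1 and Ptprb, long receptor genes, rose by 0.62 ± 0.12 and 0.55 ± 0.12 without the offset only (0.297 and 0.24), and the adhesion gene Esam fell by 0.38 ± 0.08 without it only (-0.21). Among the other marker lists, 3 of 18 cardiomyocyte genes rose and 3 fell, with a median of -0.096. With the offset 1 rose and 0 fell, and the median of this list changed sign to 0.127. Of 18 mural genes, 2 rose and 0 fell (with the offset 1 and 0), with medians of -0.21 and -0.145. No lymphocyte (4 tested), erythrocyte (5), skeletal muscle (1) or mesothelial (1) marker was called by edgeR.

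The largest rises and falls were taken by rule, as the 10 genes furthest in each direction among those called, without overlap and above an average of 1 on the log2 CPM scale. The rises were Fggy, Per2, Neb, Tll2, Prrt2, Cys1, Per3, Ciart, Mthfd1l and Plekhh1, of which 8 were called with the offset and Tll2 and Ciart were not. Cys1, which encodes the ciliary protein cystin, was at 3.04, 2.704 and 3.47 CPM against 13.4, 11.2 and 10.6 (1.93 ± 0.26, adjusted p = 0.000812, and 0.000762 with the offset). Mthfd1l, a mitochondrial folate enzyme, was at 0.781, 1.49 and 1.69 CPM against 3.65, 3.95 and 5.07 (1.66 ± 0.304, adjusted p = 0.00287, and 0.00877 with the offset). Prrt2, Plekhh1 and Tll2 were at 0.608 to 2.05, 1.49 to 3.3 and 0.434 to 1.77 CPM in KOCKD and at 4.696 to 6.502, 6.82 to 10.2 and 2.63 to 4.602 in KOCKD + RNLS, all without overlap. Plekhh1 and Tll2 were not called in the fit that left out KOCKD replicate 2, nor was Prrt2 in those that left out the first KOCKD heart and the second KOCKD + RNLS heart. Fggy had a fold change of 3.36 ± 0.495 (adjusted p = 0.00117), with the vector group apart from all other hearts as given above. The falls were Myl7, Myl4, Arntl, Gm2423, Angptl4, Spon2, Lypd8l, Cyp1a1, Ccl8 and Pdk4, of which 7 were called with the offset and Myl7, Cyp1a1 and Ccl8 were not. Lypd8l was at 1.48, 3.92 and 3.47 CPM against 0.6496, 0.165 and 0.4696 (-2.76 ± 0.53, adjusted p = 0.00369, and 0.011 with the offset). Cyp1a1, a cytochrome of the aryl hydrocarbon response, was at 22.1, 26.1 and 12.3 CPM against 4.87, 2.63 and 4.04 (-2.38 ± 0.68, adjusted p = 0.0254, and -2.31 with the offset). Outside this set, and chosen after its values were seen, Slc41a3, a magnesium transporter, was at 146, 118 and 121 CPM against 32.97, 37.2 and 34.5 (-1.88 ± 0.27, adjusted p = 0.00106, and 0.00247 with the offset).

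The same virus was given to wild-type CKD mice, and the 2 comparisons share no library. In WTCKD + RNLS against WTCKD, 611 genes were called (4.88%), 299 higher (2.39%) and 312 lower (2.49%), with a flatter course over gene length, from 0.039 in the shortest decile to 0.088 in the longest. The length trends of the single WTCKD + RNLS libraries were 0.157, -0.418 and 0.246, so this flatter course lies over unlike libraries. Called in both comparisons and in the same direction were 274 genes, 162 higher and 112 lower, which is 13.1% of the calls in the knockout and 44.8% of those in wild type, and 2 were called in opposite directions, Nkx2-5 and Tuba4a. Nkx2-5, a cardiac transcription factor, was at -0.29 in the knockout (adjusted p = 0.047, not called with the offset) and 0.37 in wild type, and Tuba4a, an alpha-tubulin, at -0.49 (adjusted p = 0.0205, and 0.0326 with the offset) and 0.49, both named after their values were seen. Of the 592 genes called with and without the offset in the knockout, 151 (25.5%) were called the same way in wild type. Arntl, Per2, Per3, Hlf, Tef, Wee1, Col3a1, Col1a1, Col5a3, Mmp14, Timp3, Pdk4, Angptl4, Txnip, Ankrd23, Cdkn1a and Cldn5 were among the genes called in the same direction in both. In wild type the fold change was -1.72 for Col3a1 (adjusted p = 0.00134), -1.06 for Ankrd23 (adjusted p = 0.000309) and -2.77 for Cldn5 (adjusted p = 0.000309). Per1 was not called there (0.87, adjusted p = 0.162). Neb, by contrast, was at 0.02 in wild type (adjusted p = 0.986), Fggy at -0.15, and the 81 cytosolic ribosomal genes had a median of 0.01 there with 0 called.

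A call in one genotype alone does not show a difference between them, so the difference itself was tested. edgeR's contrast of the 2 effects called 0 of 12521 genes, with a smallest adjusted p of 0.111, and 2286 genes (18.3%) had an unadjusted p under 0.05. DESeq2 called 355 genes, 132 with the higher fold change in the knockout and 223 with the lower, and gave no adjusted p to 46.53% of the genes. For Neb the difference in log2 fold change was 1.95 (adjusted p = 0.126), for Fggy 3.51 (adjusted p = 0.111), for Pdk4 1.42 (adjusted p = 0.194), for Arntl 0.404 (adjusted p = 0.816) and for Col3a1 0.14 (adjusted p = 0.864).

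**Figure D5:**
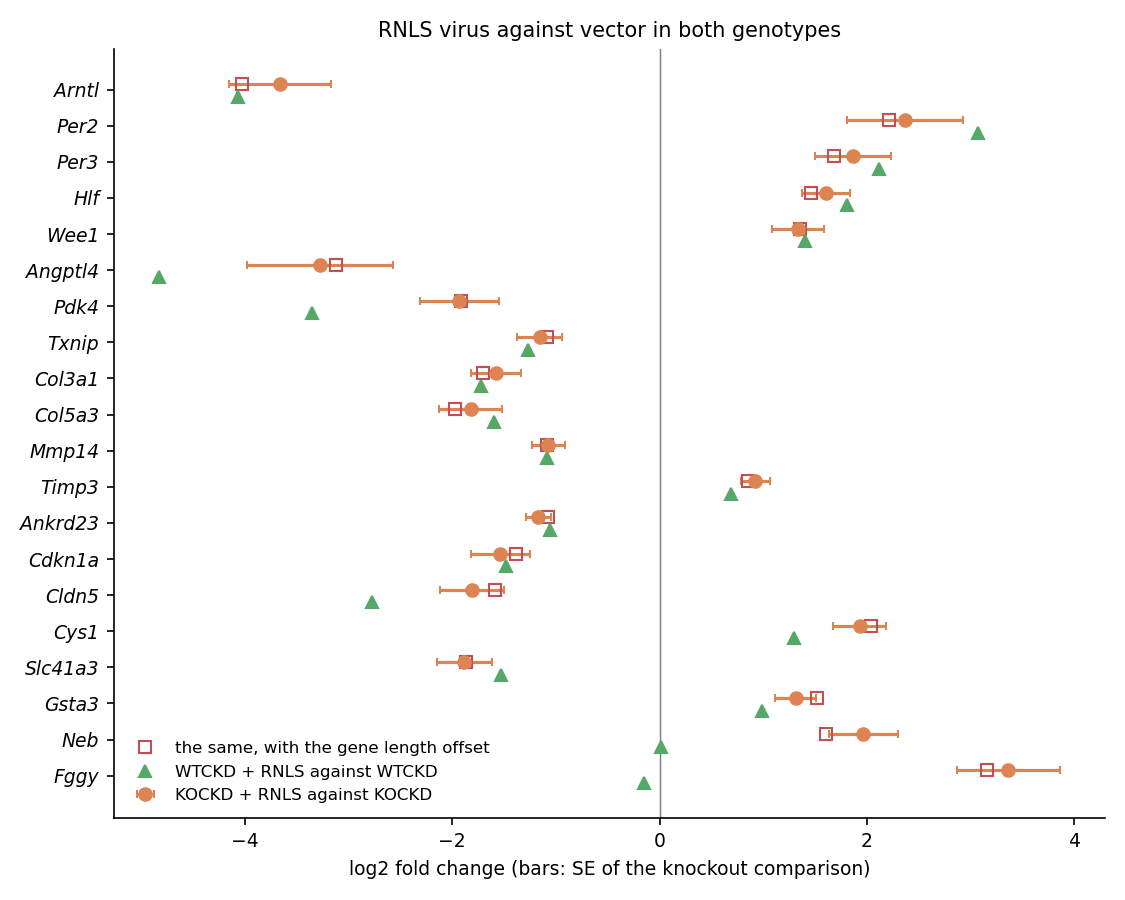
Log2 fold changes of 20 named genes for the RNLS virus against vector, in knockout hearts without the offset (circles, bars show the SE) and with it (open squares), and in wild-type hearts (triangles). The genes were picked by hand, and many are among those called in the same direction in both genotypes. That most lie on the same side of 0 is therefore no result. Over all genes, 13.1% of the knockout calls were called the same way in wild type. Neb (1.97 and 0.02) and Fggy (3.36 and -0.15) lie apart, differences that did not pass the adjusted test.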

How the data were processed

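RNA was measured in 15 mouse hearts, 3 in each of 5 groups set by the sample labels. According to the study's methods, the authors isolated total RNA with the mirVana kit, made stranded mRNA libraries, sequenced them on either of 2 Illumina instruments, trimmed reads with Trimmomatic, aligned them with HISAT2 and counted them per gene with HTSeq. The supplement names build mm9 and the submitters' processing notes GRCm39; tool versions, annotation, strand setting and the instrument of each library are not given in the sources used here. The authors deposited raw counts per gene for all 15 hearts and FPKM per gene for each heart. FPKM values as deposited were used only to obtain gene length, as counts divided by FPKM and by total counts, which agreed between all libraries within 1% for 17147 genes.

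Counts were fitted by edgeR 4.0.16 (quasi-likelihood test, TMM scaling, 1 term for the 5 groups over all 15 libraries) for genes with 10 or more counts in 3 or more of the 6 libraries compared, with Benjamini-Hochberg adjustment at 0.05. The length offset was a natural spline of 5 degrees of freedom of log2 CPM deviation on log2 length, fitted per library. Both were tested on simulated data of KOCKD + RNLS against KOCKD with 12521 genes: edgeR recovered 93 of 100 genes changed by 1 on the log2 scale and 38 of 100 changed by 0.5, with 11 false calls. With a length bias added to the simulation, false calls numbered 298 without the offset and 6 with it. That bias was a straight line on log2 length, the same in each KOCKD + RNLS library and absent from the others. The measured trends differed between libraries of all groups, so these numbers need not hold for the real fit. The common biological coefficient of variation was 0.129 and the TMM factors ran from 0.907 to 1.05. Intervals on counts cover counting error only.

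The members and the 50 gene lists were chosen with earlier results of these data known, and list counts are descriptions. Genes named were the 10 largest rises and falls called without overlap and with an average log2 CPM over 1, a set of 9 collagen and stress genes (Col1a1, Col1a2, Col3a1, Col4a1, Col4a2, Nppa, Nppb, Myh6 and Myh7) and up to 4 genes of each list by smallest p; not every gene that this rule gives is described. Other members of a list, among them several clock genes, Col6a1, Postn, Nnt, Adipoq, Cd93, Cd47, Bambi and Col5a1, were named after their values were seen. Same-numbered hearts of KOCKD and KOCKD + RNLS correlated at 0.067, -0.024 and 0.087 in their deviations from the group mean, so the numbers were not taken as pairs. Alternatives were the offset, other filters, RLE factors, the 6 libraries alone, DESeq2 1.42.0, a replicate block, the study's call rule and leaving out each library. Promoters came from RefSeq (GRCm38.p6); no coordinates of the counted genes are printed.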

Additional observations from a re-analysis of the deposited data

Results flagged for a closer look

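Hsd17b7, which encodes an enzyme of cholesterol synthesis, lay on opposite sides in the 2 genotypes. It was at 18.1, 13.9 and 20.6 CPM in KOCKD and 23.9, 28.2 and 24.6 in KOCKD + RNLS, every heart with the virus above every heart with the vector, and at 22.4, 23.3 and 24.1 CPM in WTCKD against 12.4, 10.2 and 16.3 in WTCKD + RNLS, every heart with the virus below. The fold changes were 0.55 ± 0.198 in the knockout (adjusted p = 0.0698, and 0.184 with the length offset) and -0.84 in wild type (adjusted p = 0.026). The difference between them was 1.38 on the log2 scale and did not pass the test of the difference (edgeR, adjusted p = 0.111). Tuba4a and Nkx2-5 lay on opposite sides too, and the other way round, lower with the virus in the knockout and higher in wild type. Tuba4a, an alpha-tubulin gene, was at 1050, 1087 and 1053 CPM in KOCKD and 857, 655 and 756 in KOCKD + RNLS, and at 1210, 1041 and 1218 in WTCKD and 1271, 2025 and 1566 in WTCKD + RNLS. Nkx2-5 was at 75.98, 83.7 and 76.2 CPM in KOCKD and 59.9, 65.3 and 68.6 in KOCKD + RNLS, and at 66.7, 60.3 and 57.9 in WTCKD and 71.4, 89.04 and 78.9 in WTCKD + RNLS. The groups did not overlap within either genotype for these 2 genes, and the differences between the effects were -0.979 for Tuba4a and -0.656 for Nkx2-5, neither past the test of the difference (edgeR, adjusted p = 0.111 for both). Groups of 3 hearts are too small for a test of single outlying samples, so none was made.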

How the results depend on the processing

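The 2089 calls became 763 with the length offset (425 higher, 338 lower), 628 with the replicate block and the offset together (346 higher, 282 lower) and 3119 when only the 6 libraries were fitted, where the lower calls rose to 1484. Leaving out 1 library gave 886 (without KOCKD replicate 2) to 1555 calls, with 585 to 1047 higher and 300 to 691 lower, and with the offset 204 (without KOCKD + RNLS replicate 2) to 641, with 113 to 366 higher and 91 to 275 lower. The replicate block alone gave 1950 calls, but the replicate numbers do not pair the hearts, so this says nothing of a paired effect. DESeq2 (2397), RLE size factors (2105), filterByExpr (2095), no filter (1886) and the study's call rule (2875) stayed within 1.5 times. The length trend was 0.648 between the longest and the shortest decile and ran from 0.586 to 0.702 when 1 library was left out. The difference between genotypes was called for 0 genes by edgeR under each filter, scaling, offset and block, for 0 to 2 when 1 library was left out (0 to 3 with the offset), for 355 by DESeq2 and for 1985 by the study's rule. Directions turned for genes that were not called or lost their call: Nppa ran from -1.746 without KOCKD replicate 2 to 0.138 with the offset and without KOCKD replicate 3, Ppib from -0.437 without KOCKD + RNLS replicate 1 to 0.043 with the offset and without KOCKD + RNLS replicate 3, and Wdfy1 was at -0.129 with the offset, at -0.190 with the offset and block, at -0.251 to 0.485 without 1 library and at -0.485 to 0.265 with the offset and without 1 library. Where leaving out a library moved a count, fewer samples entered the fit; otherwise the cause was not tested. With 3 hearts a group, changes of 0.5 on the log2 scale were recovered less often than not in the simulation, so genes not called may still differ. Several calls made with the offset were lost in most fits that used it and left out 1 library. Acot2, Bambi, Cd83, Foxo3, Myl4, Plekhh1 and Prrt2 lost theirs in 6 of 6. Cd47, Cd93, Cmya5, Col5a1, Ctsl, Gpx8, Nmrk2 and Oasl1 lost theirs in 5 of 6. So did Per1, Per2, Prdx1, Tef, Tgfbr3, Tnxb, Top2a and Tuba4a. Angptl4, Col6a2, Eln, Kcnk3, Mylk4, Per3, Plin5, Serpinh1 and Xaf1 lost theirs in 4 of 6. Cdkn1a, Col1a1, Kcna1, Mrpl55, Mrps14 and Spon2 lost theirs in 3 of 6. Beside the genes for which the report says so, the calls without the offset of Adamts3, Adcy9, B2m, C1qa, Ccl6, Ccl8, Ccl9, Cd83, Cfp, Col27a1, Col28a1, Cry2, Ctsl, Ctss, Cyp1a1, Ddr2, Fabp3, H2-Aa, H2-Eb1, Itga1, Kcnk3, Klf6, Lamb2, Ltbp1, Mfap5, Nampt, Nkx2-5, Nr1d1, Nr1d2, Pdia3, Pfkfb2, Ppib, Skil, Sod3, Tm7sf2, Top2a, Tuba4a and Ucp3 were lost in 1 or more of the fits that left out 1 library.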

Other observations

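A few lists not described above held calls. Of 11 neuronal and glial markers tested, 6 fell and 0 rose, with a median of -0.51 (-0.46 with the length offset, where 1 fell). Sox10, a transcription factor of Schwann cells, was at 1.997, 2.24 and 2.097 CPM against 1.299, 0.411 and 0.4696 (-1.51 ± 0.48, adjusted p = 0.0418), and S100b at 1.997, 1.86 and 2.18 against 0.893, 0.576 and 0.282 (-1.75 ± 0.51, adjusted p = 0.0293), neither called with the offset. Kcna1, a potassium channel of axons, was at 3.3, 5.22 and 4.11 CPM against 0.974, 0.905 and 1.597 (-1.87 ± 0.48, adjusted p = 0.0165, and 0.016 with the offset). All 3 lay under 6 CPM, and their calls were each lost in 3 or more of the fits that left out 1 library. Cryab, a small heat shock protein of cardiomyocytes that also stands in this list, was at 2669, 2839 and 2736 CPM against 2070, 2233 and 2139. Kcna1 was the 1 member called with the offset, so Cryab was not. Nor was Cryab called in any of the 6 fits with the offset that left out 1 library (adjusted p = 0.204 to 0.354).

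Of 40 cell cycle genes, 1 rose and 3 fell, with a median of -0.19 (-0.06 with the offset). Top2a, the topoisomerase of dividing cells, was at 3.73, 3.54 and 2.097 CPM against 0.974, 0.741 and 0.845 (-1.85 ± 0.46, adjusted p = 0.0141, and 0.0245 with the offset), and Ccnd2, cyclin D2, rose by 0.55 ± 0.12 (adjusted p = 0.00697) without the offset only. Of 32 heat shock and chaperone genes, 1 rose and 6 fell, with a median of -0.18, and with the offset 1 rose and 1 fell, with a median of -0.13. Hspa5, the chaperone of the endoplasmic reticulum, was at 598, 628 and 674 CPM against 464, 446 and 443 (-0.49 ± 0.11, adjusted p = 0.00898, and 0.0584 with the offset). Of 32 immediate early genes, 1 rose (Klf6, 0.56 ± 0.17, adjusted p = 0.0329) and 0 fell, with medians of -0.28 and -0.18. Of 34 genes of iron and heme metabolism, 1 rose and 3 fell, and none of the 4 was called with the offset (medians -0.07 and 0). Of 33 sterol synthesis genes, 0 rose and 1 fell (Tm7sf2, -0.98 ± 0.296, adjusted p = 0.0337, not called with the offset), with medians of -0.04 and -0.12.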
